A study of Mus musculus with 13 samples.

Results

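H3K27me3, trimethylation of lysine 27 on histone H3, was mapped by chromatin immunoprecipitation and sequencing in mouse embryonic stem (ES) cells, and the subject here is its broad domains outside the Hox clusters. Touching or overlapping peaks of the 4 deposited H3K27me3 peak lists were merged, and a merged region was called a domain if it held peaks of all 4 lists, was at least 10000 bp wide, lay on an autosome and lay outside 4 windows around the Hox clusters. There were 485 such domains among 31723 merged H3K27me3 regions, and they made up 10.0% of the 4841 regions held by all 4 lists. The widths and the presence in every list chose the domains, so these are described and not tested.

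The cells were J1 ES cells with an inducible knockout of Setdb1, grown feeder-free with LIF. The 2 tamoxifen lists (replicates 1 and 2) came from cells given 2.5 µM tamoxifen to ablate Setdb1. The 2 untreated lists (replicates 1 and 2) came from the same cell type labelled as without tamoxifen, and the treatment protocol names DMSO as the solvent control. In addition 4 H3K9me3 lists came from untreated cells. H3K9me3 after tamoxifen was not analysed here, and no file used here shows how much Setdb1 was lost, or how long the treatment lasted. The labels name neither the recombinase nor how many clones the line comes from. Nothing in the labels says that libraries came from separate cultures, so the spread between lists may be technical. Replicate 1 of each group was called with MACS2 2.0.10 and replicate 2 with MACS2 2.1.0, so differences over groups of domains are also given within each version.

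As background, H3K27me3 is placed by Polycomb repressive complex 2, whose catalytic subunit is Ezh2 or Ezh1. In ES cells it covers promoters of developmental regulators that are silent or poised, many of them rich in CpG dinucleotides, and at some of them the mark spreads over the whole gene and its surroundings. Setdb1 is a methyltransferase for lysine 9 of histone H3, and H3K9me3 marks mainly retroelements, imprinted loci and other constitutively silent sequence in these cells.

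The 5 promoters from the widest or most changed domains are printed because CpG content is the sequence feature most tied to Polycomb recruitment. They are examples and do not show its spread among domains. A window upstream of a single start site also does not measure the CpG content of a whole domain. Each is the 250 bases upstream of a start site in RefSeq on GRCm38.p6, a different build from the mm9 of the peaks, written 5′ to 3′ on the gene's strand with every CpG in capitals. Domains and genes were matched by name and not by converting coordinates.
Lmx1b, chr2:33641099-33641348, minus strand: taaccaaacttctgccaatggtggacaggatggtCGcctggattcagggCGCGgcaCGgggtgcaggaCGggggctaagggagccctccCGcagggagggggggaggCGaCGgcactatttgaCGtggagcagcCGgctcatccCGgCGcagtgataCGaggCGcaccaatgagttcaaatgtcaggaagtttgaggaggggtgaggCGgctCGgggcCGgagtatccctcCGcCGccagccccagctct
Nr2f2, chr7:70366747-70366996, minus strand: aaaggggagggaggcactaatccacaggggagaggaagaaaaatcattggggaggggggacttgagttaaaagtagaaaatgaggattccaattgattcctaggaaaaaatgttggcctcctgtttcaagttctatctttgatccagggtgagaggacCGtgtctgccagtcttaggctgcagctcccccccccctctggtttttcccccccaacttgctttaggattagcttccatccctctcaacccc
Nr2f1, chr13:78198874-78199123, minus strand: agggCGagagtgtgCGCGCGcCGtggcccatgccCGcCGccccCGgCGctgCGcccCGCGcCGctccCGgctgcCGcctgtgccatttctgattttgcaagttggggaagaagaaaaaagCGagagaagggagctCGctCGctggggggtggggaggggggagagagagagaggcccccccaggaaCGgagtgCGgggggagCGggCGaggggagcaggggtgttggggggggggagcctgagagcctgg
Hand2, chr8:57320733-57320982, plus strand: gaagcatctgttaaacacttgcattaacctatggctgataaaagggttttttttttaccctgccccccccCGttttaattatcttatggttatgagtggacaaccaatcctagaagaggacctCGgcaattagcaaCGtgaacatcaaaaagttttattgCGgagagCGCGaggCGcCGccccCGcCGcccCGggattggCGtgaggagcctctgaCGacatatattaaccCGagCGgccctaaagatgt
Tfap2b, chr1:19211804-19212053, plus strand: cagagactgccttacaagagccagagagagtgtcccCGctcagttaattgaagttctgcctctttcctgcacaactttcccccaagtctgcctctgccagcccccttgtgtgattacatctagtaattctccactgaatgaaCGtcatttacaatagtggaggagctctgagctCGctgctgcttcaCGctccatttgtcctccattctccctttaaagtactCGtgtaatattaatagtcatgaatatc
The Nr2f1 promoter held 22 CpGs, the Lmx1b promoter 19, the Hand2 promoter 15, the Tfap2b promoter 5 and the Nr2f2 promoter 1. Of 27025 gene symbols in the promoter table, 16.3% had at least as many CpGs as Nr2f1, 21.6% as many as Lmx1b, 29.6% as many as Hand2, 57.6% as many as Tfap2b and 92.3% as many as Nr2f2. Nr2f1 has 2 windows in the table, and the one with more CpGs is shown. The median was 18 CpGs over the 82 named loci in a domain that had a window, and 79 of these were at or above the median of all genes, which was 6. Tfap2b and Nr2f2 fell below that median of all genes and were thus exceptions among the named loci. Over 38 listed loci that were not matched to a domain the median was 16.5. The listed developmental loci were thus CpG-rich whether or not a domain was matched to them. The positions used for matching are approximate, so some of the unmatched loci may lie in a domain.

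The domains covered 7.87 Mb and held 27.7% of the 28.4 Mb in regions kept by all 4 lists. Their median width was 13933 bp, with quartiles of 11643 and 18711 bp and a maximum of 53051 bp. Of the 485 domains, 280 were 10 to 15 kb wide, 101 were 15 to 20 kb wide and 104 were 20 kb or wider, of which 21 reached 30 kb. The 4267 narrower autosomal regions held by all 4 lists, outside the Hox windows, had a median width of 4311 bp. Every merged region of 10 kb or more was held by all 4 lists, and 9 of 497 lay in the Hox windows and 3 on chromosome X. Any base in a peak counted as held, so a domain need not be broad in each list. The domain on chromosome 8 from 36910419 to 36922807 was covered at only 4.05% in tamoxifen replicate 2. With a cover of at least 50% required in each list, 428 domains were left. At the threshold, the narrowest domain was 10005 bp wide (chromosome 8 from 17529097 to 17539101), and the widest region left out was 9997 bp wide (chromosome 14 from 34731981 to 34741977). Peaks covered 86.6% and 65.7% of that domain in the tamoxifen lists, against 93.1% and 75.9% in the untreated lists. They covered 46.3% and 37.0% of the region just outside in the tamoxifen lists, against 98.4% and 76.5% in the untreated lists.

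Domains lay on all 19 autosomes and were unevenly spread. Chromosome 2 had the most, 57, followed by chromosome 11 with 49 and chromosome 8 with 43, while chromosome 16 had 9. As a share of each chromosome's kept regions, domains ranged between 6.15% on chromosome 18 and 15.4% on chromosome 19.

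Gene names were attached by position from a list of 161 developmental loci with approximate mm9 positions, written from background knowledge. No mm9 annotation was used here, so a name says which locus a domain lies at and not which exon or intron it covers. The list was compared with a GRCm38.p6 gene table, in which all 161 loci were on the listed chromosome, and 1 of 146 neighbouring pairs, Nkx2-2 and Nkx2-4, stood in another order. By these approximate positions a domain covered 110 of the 161 loci (68.3%). A locus listed slightly off its true place can be missed, so a domain without a name may still lie at a listed locus. Cdkn2a, Cdkn2b and Grb10 were added after the values had been seen. With these, 108 domains had a name and 377 had none. Names were more frequent among wide domains: 57 of the 104 domains of 20 kb or more had one, against 51 of the 381 narrower domains. The list was written with wide Polycomb targets in mind, so these shares describe the list as much as the domains.

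Transcription factors of early patterning were frequent among the widest domains. The widest, 53051 bp, lay on chromosome 2 from 33452720 to 33505770 at Lmx1b, a LIM-homeodomain factor of dorsal limb and midbrain development. The second, 52085 bp, lay on chromosome 7 from 77465937 to 77518021 at Nr2f2, and the third, 50086 bp, on chromosome 13 from 78302854 to 78352939 at Nr2f1. These encode the nuclear receptors COUP-TFII and COUP-TFI, which act in vessel, heart and cortex development. The fourth, 49525 bp, lay on chromosome 8 from 59786234 to 59835758 at Hand2, a basic helix-loop-helix factor of heart and limb buds. The fifth, 41953 bp on chromosome 8 from 87287791 to 87329743, has no listed name. The sixth, 41113 bp on chromosome 4 from 88915296 to 88956408, lay at Cdkn2a and Cdkn2b, inhibitors of cyclin-dependent kinases and known Polycomb targets. Others among the 12 widest lay at Dlx6 and Dlx5 (37928 bp), homeobox factors of jaw and limb, Pax3 (36371 bp), a factor of neural crest and muscle, Pax2 (34632 bp), of kidney and inner ear, and Pax6 (34234 bp), of the eye.

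Peaks covered less of the domains in both tamoxifen lists than in either untreated list. Over all 485 domains, 75.3% and 81.6% of bases lay in peaks of the tamoxifen lists, against 87.1% and 84.6% in the untreated lists. The group means were 78.4% ± 4.5 with tamoxifen and 85.9% ± 1.76 untreated (SD, n = 2 each), a difference of -7.43 percentage points. The groups did not overlap, but the gap between the nearest lists was smaller than the difference between the 2 tamoxifen lists. Within MACS2 2.0.10 the difference was -11.86 points and within 2.1.0 it was -3.0 points. With 2 lists against 2, no exact test could pass 0.05, and none was run on domains chosen from the same lists.

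Within MACS2 2.1.0 the difference was larger in wider domains, whereas within 2.0.10 it was of similar size in every width class. Domains of 20 kb or more were covered at 81.0% and 83.9% in the tamoxifen lists, against 93.0% and 89.2% in the untreated lists, with differences of -11.98 points within 2.0.10 and -5.26 points within 2.1.0. For domains of 15 to 20 kb the values were 77.6% and 83.1% with tamoxifen, against 87.5% and 86.5% untreated, or -9.84 and -3.42 points. For domains of 10 to 15 kb they were 69.3% and 79.0% with tamoxifen, against 82.1% and 79.9% untreated, and the difference within 2.1.0 was only -0.93 points beside -12.8 within 2.0.10. Narrower regions were covered at 61.5% and 71.2% with tamoxifen, against 77.3% and 69.9% untreated, so that within 2.1.0 the sign turned, to 1.28 points. Peak number and width also differed between lists. The tamoxifen lists held 15116 and 22265 peaks, against 7041 and 17094 in the untreated lists. Median peak widths were 729 and 727 bp against 2511 and 784 bp, so width differed little within 2.1.0. Over the whole genome the lists covered 22.9 and 32.9 Mb with tamoxifen, against 24.5 and 28.5 Mb untreated. The tamoxifen list thus covered less within 2.0.10 and more within 2.1.0. The part of library depth and peak calling in the difference was not tested, since no read counts are in the lists.

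**Figure D1:**
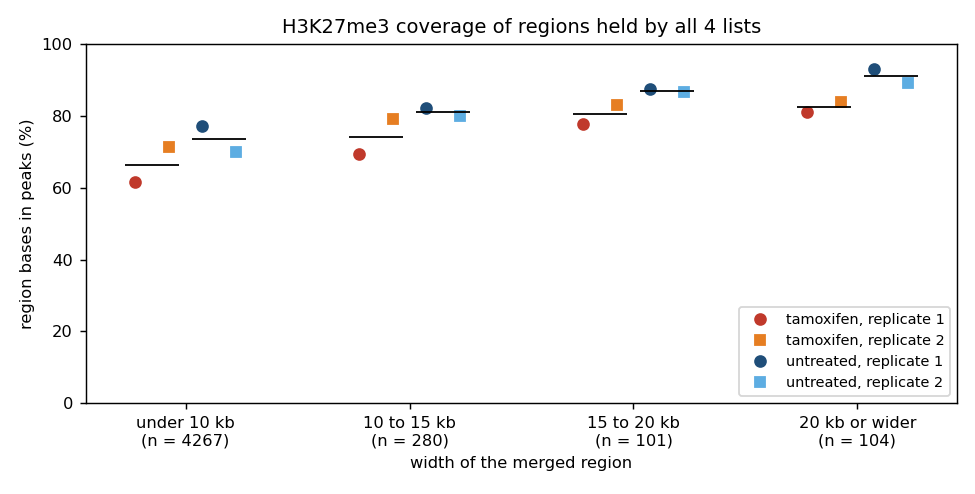
Share of region bases in peaks (%, vertical axis) for merged H3K27me3 regions held by all 4 lists, by width (horizontal axis). Each point is 1 list, red and orange for tamoxifen and blue for untreated, and black lines are the means of 2 lists; in domains of 20 kb or wider both tamoxifen points (81.0% and 83.9%) lie below both untreated points (93.0% and 89.2%), while under 10 kb the groups overlap.

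Counted domain by domain, 162 of 485 (33.4%) were covered less in both tamoxifen lists than in both untreated lists, and 23.8% of all regions held by the 4 lists were. The reverse, more coverage in both tamoxifen lists, was seen in 4 domains (0.825%), beside 5.06% of all such regions. Among the 104 domains of 20 kb or more, 54 (51.9%) were lower and none was higher. Within MACS2 2.0.10, 421 domains (86.8%) were lower with tamoxifen, beside 78.0% of all regions. Within 2.1.0, 306 (63.1%) were lower, beside 49.9% of all regions. In both versions, 274 (56.5%) were lower, beside 39.5% of all regions. The domains were thus lower somewhat more often than the background, and these shares carry no test because width, coverage and membership share the same peaks. By group means, 387 domains (79.8%) were lower with tamoxifen, beside 67.9% of all regions. The difference per domain, over both versions, had a median of -7.1 points and quartiles of -12.4 and -1.6 points, and ran between -45.2 and 31.4 points.

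Domains chosen in one MACS2 version and measured in the other gave values that the choice had not used. The 308 domains chosen from the replicate 1 lists were covered at 81.9% with tamoxifen, against 87.5% untreated, in the replicate 2 lists, a difference of -5.61 points, with 224 lower and 82 higher. The 363 domains chosen from the replicate 2 lists were covered at 79.5% with tamoxifen, against 87.0% untreated, in the replicate 1 lists, a difference of -7.50 points, with 291 lower and 65 higher. In the replicate 2 lists 72.7% were thus lower, beside 49.9% of all regions held by the 4 lists. In the replicate 1 lists 80.2% were lower, close to the 78.0% of all such regions. Those background regions were chosen with all 4 lists and have any width, so the shares are not like for like. Of the 4841, 4267 were the narrower autosomal regions. Among these 48.6% were lower within 2.1.0 and 76.7% within 2.0.10. Each measurement compares 1 list with 1 list and has no replicate error of its own.

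Fragmentation followed coverage. The domains were made of 1385 and 1016 separate peaks in the tamoxifen lists, against 789 and 970 in the untreated lists, or 2.86 and 2.09 peaks per domain against 1.63 and 2.00. A single peak stood for the domain in 80 and 176 domains with tamoxifen, against 240 and 186 untreated. The shift was large in the replicate 1 lists and small in the replicate 2 lists. Of all regions held by the 4 lists, 59.1% and 77.1% were a single peak with tamoxifen, against 81.1% and 73.1% untreated. Replicate 2 thus went the other way there.

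The widest domains varied in how far apart the groups lay. The Nr2f1 domain was covered at 82.0% and 69.0% with tamoxifen, against 97.3% and 86.1% untreated, in 9 and 11 peaks against 2 and 5. Both tamoxifen lists lay below both untreated lists there. The Cdkn2a and Cdkn2b domain was covered at 72.4% and 71.9% with tamoxifen, against 94.2% and 92.7% untreated, in 12 and 7 peaks against 3 and 2, and its groups lay far apart relative to their spread. The Lmx1b domain was covered at 65.9% and 85.6% with tamoxifen, against 78.6% and 94.4% untreated, so its groups overlapped although each version gave a lower value with tamoxifen.

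Other very wide domains differed little in mean coverage. The Hand2 domain was covered at 100.0% and 84.4% with tamoxifen, against 94.2% and 91.5% untreated, and held no stretch of 500 bp or more that was missing from both tamoxifen lists only. The Pax2 domain was covered at 95.1% and 95.1% with tamoxifen, against 98.2% and 95.4% untreated. The Hand2 groups overlapped, and the Pax2 groups were parted by a fraction of a point.

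**Figure D2:**
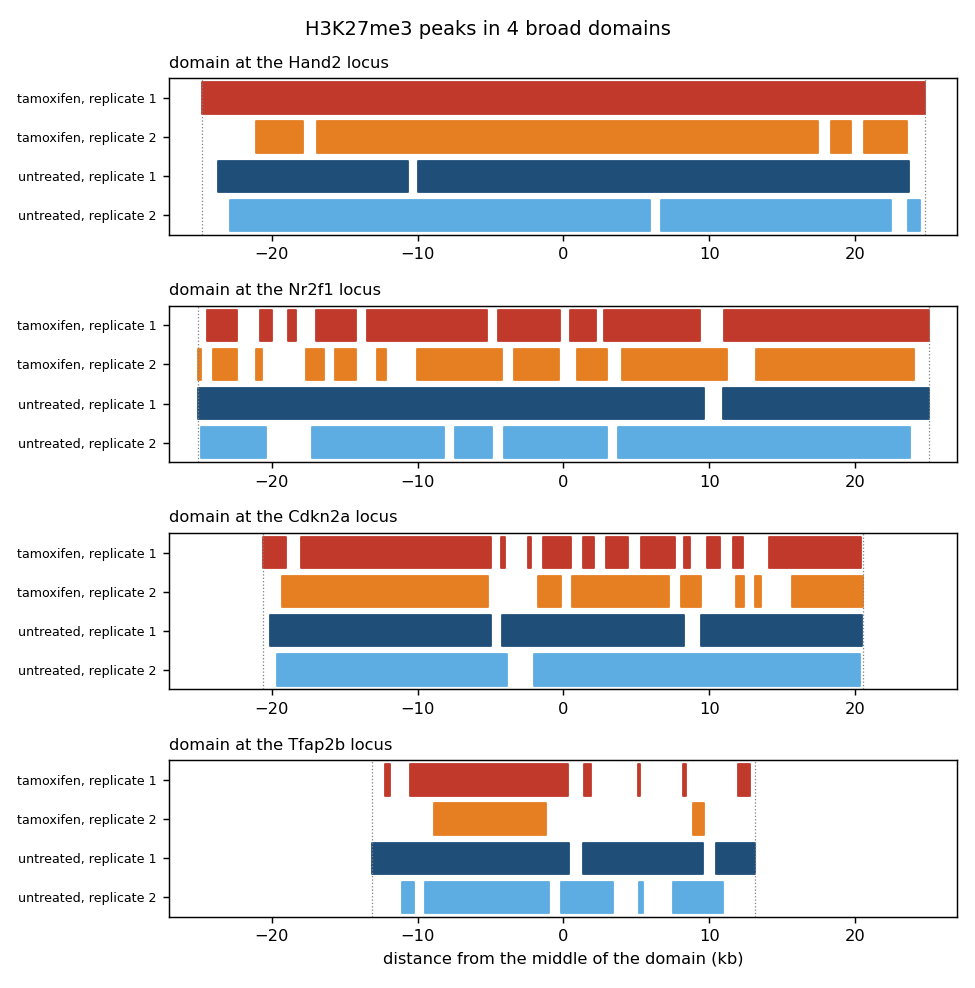
H3K27me3 peaks (bars) of each list, one row per list with tamoxifen above untreated, in the domains at Hand2, Nr2f1, Cdkn2a and Tfap2b, against the distance from the middle of the domain (kb). Dotted lines mark the domain's borders; the Nr2f1 domain is in 9 and 11 pieces with tamoxifen and in 2 and 5 untreated, while the Hand2 domain is in 1 and 4 pieces with tamoxifen and in 2 and 3 untreated.

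By gene family, mean coverage over both versions was lower with tamoxifen in each family listed, by different amounts, but not within each MACS2 version. Within 2.0.10 the families differed by -13.52 to -5.78 points. Within 2.1.0 they ran between -8.2 points, for Zic, and 4.38 points, for the sine oculis family, with 0.02 points for the paired-box family. The counts of lower domains below are to be read against the 79.8% of all domains and 67.9% of all regions that were lower by group means, and those without overlap against 33.4% of domains and 23.8% of regions. With so few domains in a family, they set no family apart from these shares. The 7 LIM-homeobox domains, among them Lhx2, Isl1 and Lmx1b, averaged 83.4% ± 0.372 with tamoxifen and 92.5% ± 4.32 untreated, with 7 lower and 3 without overlap. The 7 basic helix-loop-helix domains, among them Neurog1 and Twist1, averaged 85.2% ± 3.3 with tamoxifen and 92.0% ± 5.99 untreated, with 7 lower and 3 without overlap. The 7 forkhead domains, among them Foxa2 and Foxc1, averaged 86.2% ± 1.57 with tamoxifen and 92.0% ± 0.00376 untreated, with 6 lower and 3 without overlap. All of these are SD over 2 lists, here and for the families below. Each list's family value is the plain mean over its domains, not weighted by width, unlike the coverage given for sets of domains above. A small SD of such means does not show that single domains were alike in the 2 lists: Lmx1b was at 65.9% and 85.6% with tamoxifen. Forkhead factors such as Foxa2 act in endoderm and notochord, and LIM-homeobox factors specify neuron types.

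The 6 Iroquois domains, at Irx1 to Irx6, which pattern neural plate and heart, averaged 85.7% ± 3.77 with tamoxifen and 92.3% ± 1.81 untreated, with 5 lower and 3 without overlap. The 7 T-box domains, among them T and Tbx5 of mesoderm and heart, averaged 83.5% ± 4.9 with tamoxifen and 89.1% ± 1.01 untreated, with 7 lower and 1 without overlap. The 7 NK homeobox domains, among them Nkx2-1 of lung and thyroid, averaged 84.0% ± 0.0567 with tamoxifen and 91.5% ± 8.49 untreated, with 6 lower and 2 without overlap. Smaller gaps were seen in the 6 paired-box domains, 89.5% ± 0.676 with tamoxifen and 93.0% ± 4.4 untreated, with 5 lower and 3 without overlap, and in the 3 sine oculis domains at Six2, Six3 and Six6, 87.8% ± 8.78 with tamoxifen and 91.9% ± 3.29 untreated, with 3 lower and 1 without overlap. The 4 signalling loci Shh, Wnt1, Wnt3 and Fgf8 averaged 83.5% ± 7.22 with tamoxifen and 89.9% ± 8.08 untreated, with 4 lower and 2 without overlap. The 2 Distal-less domains, at Dlx1 and Dlx2 and at Dlx6 and Dlx5, averaged 84.3% ± 6.7 with tamoxifen and 91.7% ± 1.89 untreated, with 2 lower and 1 without overlap. The 3 Zic domains averaged 74.2% ± 12 with tamoxifen and 84.0% ± 14.3 untreated, with 2 lower and 1 without overlap. In the NK, paired-box, sine oculis, Zic and signalling domains an SD of one group was as large as the difference or larger.

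Among named domains of those families, Foxa2 was covered at 80.2% and 61.1% with tamoxifen, against 96.5% and 83.4% untreated, without overlap. Shh, a morphogen of limb and neural tube, was covered at 95.4% and 99.2% with tamoxifen, against 97.9% and 97.9% untreated. Pax7 went the other way in its mean, by 5.0 points, with overlapping groups. So did Gata2, which is in none of these families, by 4.8 points and also with overlapping groups. The 108 named domains together differed by -10.2 points within 2.0.10 and by -4.66 points within 2.1.0. The 377 without a name, some of which may lie at listed loci too, differed by -12.58 points within 2.0.10 and by -2.28 points within 2.1.0. Both tamoxifen lists lay below both untreated lists in 44.4% of the named domains and in 30.2% of the others; named domains are also wider, and the part of width in this was not tested.

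Coverage was lower toward both borders in every list, and the lists were furthest apart there. In the outermost 5% of the width at each end, mean coverage was 33.9% and 43.0% with tamoxifen, against 58.1% and 48.0% untreated. In the central 10% of the width it was 83.6% and 92.4% with tamoxifen, against 90.6% and 91.8% untreated, so replicate 2 with tamoxifen was no lower than the untreated lists. In domains of 20 kb or more the middle was covered at 86.9% and 91.2% with tamoxifen, against 95.2% and 96.2% untreated, and these groups did not overlap. Low coverage at the borders follows in part from the merging, since a domain reaches as far as its widest list.

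**Figure D3:**
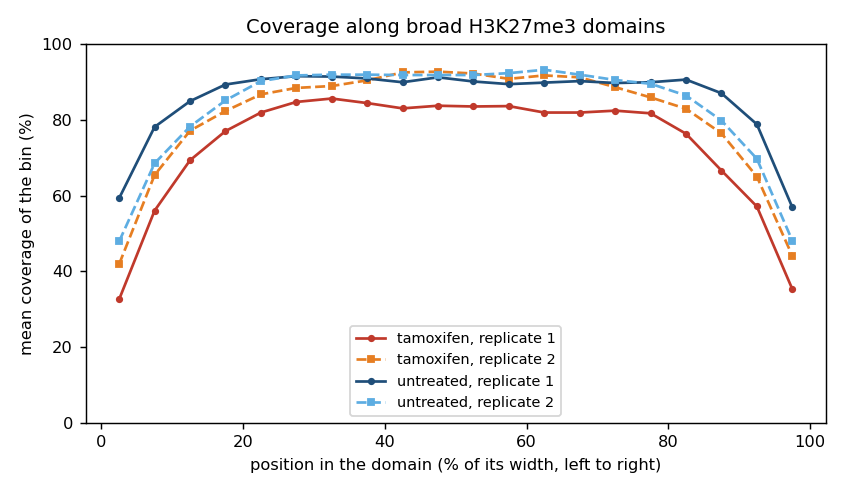
Mean share of bases in peaks (%, vertical axis) in 20 bins along 485 domains, from the left border to the right (% of width, horizontal axis). Each line is 1 list, tamoxifen in red and orange and untreated in blue; in the middle replicate 1 with tamoxifen runs lowest (83.6%) and the other lists lie close together (90.6% to 92.4%).

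Gaps were located as stretches of at least 500 bp that lay in both untreated lists and in neither tamoxifen list. There were 168 in 140 domains (28.9%), while 13.0% of all regions held by the 4 lists had one. They summed to 137 kb, with a median of 720 bp and a maximum of 2924 bp. The opposite kind, in both tamoxifen lists and neither untreated list, numbered 33 in 30 domains (6.19%), while 3.20% of all such regions had one, and reached 1081 bp. A wide region has more room for a stretch, so the shares of domains and of all regions are not like for like. Per base, the order turned. With stretches of any length counted, 3.68% of the bases in both untreated lists were open in the domains, against 6.31% in narrower regions. Gaps of at least 500 bp numbered 2.8 per 100 kb of such bases in the domains, against 4.58 in narrower regions.

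Most gaps lay inside the domain but off its centre. Tamoxifen peaks remained on both sides of 121 of the 168 (72.0%), and the other 47 were at an end. Within the domain, 122 had their midpoint in the outer 50% of the width and 46 in the middle 50%. Again with stretches of any length, 6.22% of the bases in both untreated lists were open in the outer 50% and 1.74% in the middle 50%. For the opposite kind the values were 1.62% in the outer 50% and 0.35% in the middle 50%, so both kinds were denser toward the borders. Gaps were scattered, since 345 domains had none, 117 had 1 and 23 had 2 or 3.

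In domains of 20 kb or more there were 62 gaps in 46 domains (44.2%) and 6 opposite stretches in 5 domains, and 83.9% of the gaps had tamoxifen peaks on both sides. Within MACS2 2.0.10 alone, 994 gaps stood against 212 opposite stretches. Within 2.1.0 alone, 698 gaps stood against 492 opposite stretches, so the excess was smaller there.

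The 8 domains with the most open bases held 15.1% of the open length. They were picked for bases missing from both tamoxifen lists, so lower coverage with tamoxifen is in part built into the pick. The first, on chromosome 2 from 17950728 to 17961599, has no listed name and held the longest gap, 2924 bp from 17953154 to 17956077. It was covered at 52.2% and 48.5% with tamoxifen, against 91.0% and 100.0% untreated. The second, on chromosome 12 from 81112744 to 81123259, held a gap of 2822 bp near its middle and was covered at 18.4% and 70.3% with tamoxifen, against 61.1% and 92.2% untreated. Its groups overlapped, unlike those of the first.

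The third lay on chromosome 1 from 19193475 to 19219748 at Tfap2b, an AP-2 factor of neural crest, kidney and ductus arteriosus. It was covered at 49.1% and 32.3% with tamoxifen, against 93.3% and 63.1% untreated, and held 2747 open bases in 3 gaps. The longest of these, 1530 bp from 19208497 to 19210026, lay 9722 bp from the nearer border. Neither tamoxifen list reached the level of either untreated list there, a difference that the pick by open bases favours.

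The Nr2f1 domain was the fourth with 2670 open bases in 3 gaps, and the Cdkn2a and Cdkn2b domain the eighth with 2238 in 3. Between them came unnamed domains on chromosome 9 from 32488427 to 32505754 with 2465 open bases and on chromosome 10 from 42732819 to 42745019 with 2427. The seventh, with 2376 open bases on chromosome 11 from 11920834 to 11942526, lay at Grb10, an imprinted adaptor of growth factor receptors. It was covered at 61.1% and 81.3% with tamoxifen, against 88.8% and 90.8% untreated. The largest gain was in an unnamed domain on chromosome 8 from 124782929 to 124796238, covered at 36.5% and 100.0% with tamoxifen, against 30.3% and 43.5% untreated, and it rested on replicate 2.

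About 1 domain in 4 had a neighbour. Within 100 kb of another domain lay 121 of 485 (24.9%), in 44 pairs and 11 clusters of 3, with none larger, and 364 stood alone. The median gap between neighbours on a chromosome was 2063559 bp, and 66 of 466 gaps were 100 kb or less. Of these, 22 were 10 kb or less and 5 were 1 kb or less, the smallest being 521 bp. Only touching or overlapping peaks were merged, so a stretch of H3K27me3 cut by a short gap counts as neighbouring domains. Another region held by all 4 lists, of any width, lay within 100 kb of 62.1% of the domains and of 53.1% of the narrower regions. The edges of a wide region reach further, and no test was made of that difference.

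The tightest cluster of 3 covered 90.7% of the 62446 bp on chromosome 9 from 91243401 to 91305846, at Zic1 and Zic4, zinc finger factors of the cerebellum encoded by neighbouring genes. Its domains, 17148, 27539 and 11962 bp wide, were parted by 587 and 5210 bp. The third of them, with no listed name, was covered at 63.5% and 29.7% with tamoxifen, against 100.0% and 73.1% untreated. The first, at Zic1, was covered at 91.8% and 71.6% with tamoxifen, against 100.0% and 91.9% untreated. Both of these were lower in the tamoxifen lists without overlap, at Zic1 by a very small margin, while the middle one, at Zic4, was covered at 78.7% and 54.4% with tamoxifen, against 99.8% and 68.7% untreated, with overlap.

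The longest cluster spanned 188223 bp on chromosome 12 from 57615582 to 57803804. Nkx2-1, of lung, thyroid and forebrain, lay in its first domain (29277 bp) and Pax9, of tooth and thymus, in its last (25403 bp), and no list had a peak between the domains. The cluster on chromosome 5 from 147995661 to 148131053 held Pdx1 of the pancreas (16301 bp) and Cdx2 of trophectoderm and gut (22058 bp). The Pdx1 domain was covered at 70.2% and 90.8% with tamoxifen, against 100.0% and 81.0% untreated, and the Cdx2 domain at 83.9% and 89.9% with tamoxifen, against 96.3% and 92.8% untreated. The Cdx2 groups did not overlap, whereas the Pdx1 groups did.

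Tfap2b lay in the middle domain of a cluster on chromosome 1 from 19085480 to 19234432, where the gap to its right neighbour was 692 bp and the gap to its left 90270 bp. Pax2 lay in the middle of a cluster on chromosome 19 from 44740957 to 44914903, and Wnt3, a ligand of primitive streak formation, in the middle of one on chromosome 11 from 103606259 to 103677688. The Wnt3 domain was covered at 47.6% and 72.5% with tamoxifen, against 48.4% and 93.5% untreated, so replicate 1 of both groups was low. The other clusters of 3 held no listed name. The widest of these spanned chromosome 1 from 74827343 to 75005499. Another began at 115547926 and ended at 115655064 on chromosome 4, and one more covered the interval 33767267 to 33918023 of chromosome 5. Chromosome 7 carried 2, one between 86638722 and 86745939 and the other between 80514488 and 80558078. The 2 widest domains were also paired, Lmx1b with a domain of 31446 bp across 6983 bp and Nr2f2 with one of 15180 bp across 28665 bp.

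**Figure D4:**
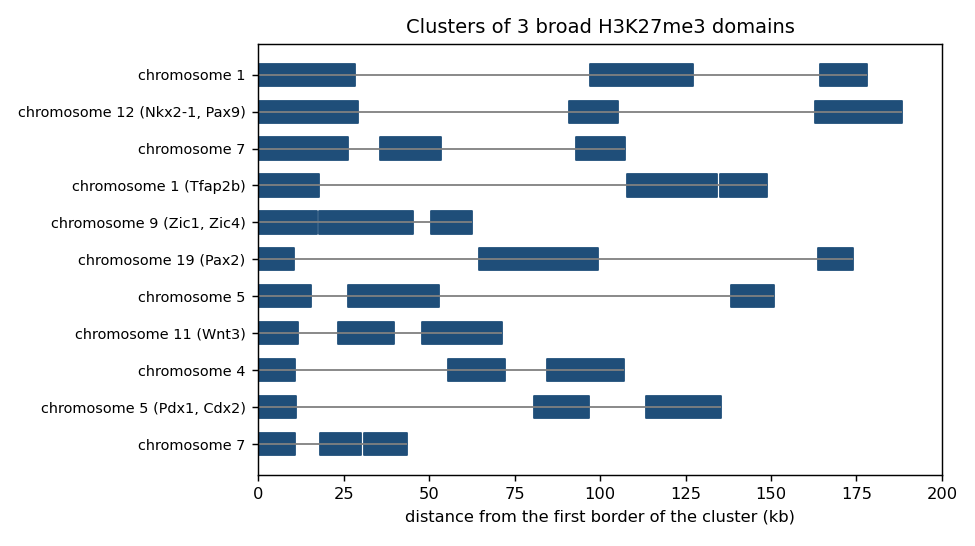
The 11 clusters of 3 domains lying within 100 kb of each other, drawn to scale as distance from the first border of the cluster (kb, horizontal axis), with listed loci in brackets. Bars are domains and lines the sequence between them; the Zic1 and Zic4 cluster is filled by its domains to 90.7%, and the Nkx2-1 and Pax9 cluster to 36.5%.

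H3K9me3, which the choice of domains did not use, was sparse inside them and just outside. In untreated cells 0.181%, 0.284%, 0.690% and 0.440% of domain bases lay in peaks of H3K9me3 replicates 1 to 4, against 1.14%, 1.02%, 1.60% and 1.09% of bases 50 to 100 kb outside. The means were 0.399% ± 0.222 inside and 1.22% ± 0.263 at 50 to 100 kb (SD, n = 4). The difference was -0.82 ± 0.15 points and was lower in 4 of 4 lists, for which exact sign flips gave a two-sided permutation p of 0.13; 4 lists can give no smaller p. In the first 10 kb outside, 0.526%, 0.604%, 1.17% and 0.618% of bases were in peaks, a mean of 0.729% ± 0.295, again lower than at 50 to 100 kb in 4 of 4 lists (exact permutation p = 0.13). From 10 to 50 kb the mean was 1.19% ± 0.301 and differed from that at 50 to 100 kb by -0.03 ± 0.04 points (exact permutation p = 0.25). The lower level thus reached about 10 kb past the border in these bins, and all zones lay under the 1.84% ± 0.322 of the autosomes.

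Narrower H3K27me3 regions showed the same order, with a mean of 0.413% inside, 0.979% in the first 10 kb, 1.35% from 10 to 50 kb and 1.51% from 50 to 100 kb, so a low H3K9me3 level was not particular to the domains. H3K27me3 itself covered 4.81% and 9.26% of the first 10 kb outside the domains with tamoxifen, against 4.73% and 8.19% untreated. These groups overlapped, and the differences between replicates were larger than those between groups. With other regions held by all 4 lists left out, the values were 2.02% and 5.98% with tamoxifen, against 0.788% and 4.74% untreated. Those groups overlapped too, although each MACS2 version gave a higher value with tamoxifen. A peak that touches a domain is part of it, so this zone cannot show whether a domain extends.

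**Figure D5:**
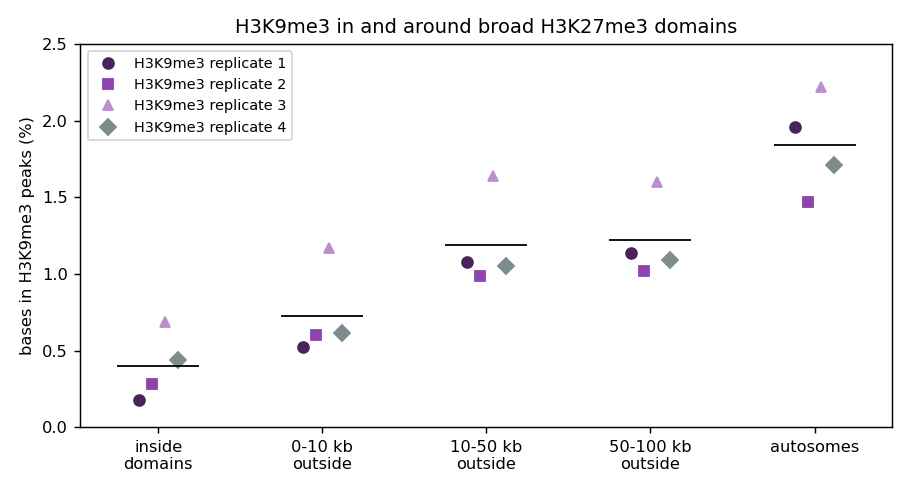
Share of bases in H3K9me3 peaks (%, vertical axis) inside the 485 domains, in 3 zones outside and over the autosomes (horizontal axis), in untreated cells. Each symbol is 1 of 4 lists and lines are means; the mean is 0.399% inside, 0.729% in the first 10 kb, 1.22% at 50 to 100 kb and 1.84% over the autosomes.

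An H3K9me3 region shared by all 4 lists overlapped 6 domains (1.24%), while 0.806% of all regions held by the 4 H3K27me3 lists overlapped one. Within 10 kb there was one for 24 domains (4.95%), beside 5.70% of all such regions. The median distance was 141 kb for domains and 132 kb for narrower regions. The largest overlap was at Grb10, with 11060 bp, where H3K9me3 peaks covered 21.8%, 31.8%, 48.1% and 48.5% of the domain. That domain was also among the 8 with the most bases open after tamoxifen.

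The next was at Zic4 on chromosome 9 from 91261136 to 91288674, with 6552 bp and H3K9me3 coverage of 4.27%, 16.1%, 23.8% and 8.73%. The others among the 5 largest have no listed name. One on chromosome 19 from 37948602 to 37961049 shared 1836 bp, and its H3K27me3 coverage was 57.4% and 60.7% with tamoxifen, against 53.5% and 97.4% untreated. One on chromosome 12 from 8301272 to 8313008 shared 1819 bp, with 70.0% and 64.7% with tamoxifen, against 85.5% and 94.4% untreated. One on chromosome 8 from 33987777 to 33999661 shared 896 bp, with 75.8% and 51.0% with tamoxifen, against 99.1% and 67.4% untreated. Only the chromosome 12 domain of these 3 was lower in both tamoxifen lists than in both untreated lists.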

How the data were processed

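Chromatin of J1 inducible Setdb1 knockout ES cells was precipitated with H3K27me3 or H3K9me3 antibody and sequenced. Of 13 samples, 8 had a peak list; the 5 inputs were not analysed here. The authors deposited 1 list per library with chromosome, start and end of each peak, and no score, count or p-value, so the depth is unknown. Per the submitters' processing notes, Bowtie 0.12.7 and MACS2 were used on mm9, with MACS2 2.0.10 for the first library of each group and 2.1.0 for the others. The calling mode was not given in the sources used here, nor were threshold and control. The H3K9me3 library numbered 4 has the antibody entry none and was grouped by its title. Unnumbered libraries were numbered 1.

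Peaks that touch or overlap were merged with Python 3.11.15, NumPy 2.4.6 and pandas 2.3.3, and figures were drawn with Matplotlib 3.10.9. Coverage is the percent of region bases in peaks, summed over regions. For gene families and for positions along the domains it is instead the plain mean of the percents of single domains. The interval code was tested on simulated data. H3K9me3 zones were compared by a two-sided exact permutation test (sign flips over 4 lists). Positions count from 1 on mm9. Domains described singly were taken from the 12 widest, those in clusters of 3, the 8 with the most open bases and the 5 with the largest H3K9me3 overlap; others, such as members of gene families and the largest gain, were picked after their values were seen. Some loci, and the domains at them, are not reported singly here. The domains, lists and rules were chosen with earlier results of these data known. Alternatives were other width, merging, coverage, stretch and distance limits, each MACS2 version alone, and each list left out.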

Additional observations from a re-analysis of the deposited data

Results flagged for a closer look

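H3K9me3 replicate 3 stood apart from the other 3 lists around the domains. It covered 1.17% of the bases in the first 10 kb outside and 1.64% from 10 to 50 kb, and 1.09% and 1.64% of the same zones once other H3K27me3 regions were left out. It covered 1.39% of the first 10 kb outside narrower regions. In each of these zones its gap to the nearest list was large for a group of 4, which chance gives in about 1 in 20 groups, and the zones share the same list. It also held the most H3K9me3 peaks of the 4, 42725.

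Outside the broad domains, the tamoxifen difference in H3K27me3 coverage took opposite signs in the MACS2 versions. In narrower regions it was -15.79 points within 2.0.10 and 1.28 points within 2.1.0. In all regions held by the 4 lists, the broad domains included, it was -14.63 points within 2.0.10 and near 0 within 2.1.0, at 0.09 points. The difference between versions was not tested, since each holds 1 list per group.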

How the results depend on the processing

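The tamoxifen difference in coverage of the domains was negative under every alternative run, between -10.11 and -4.37 points when 1 list was left out between -8.62 and -5.61 points under the other settings, and -11.86 points within MACS2 2.0.10 and -3.0 points within 2.1.0. The number of domains was 382 to 471 with 1 list left out, 205 at a minimum of 15 kb and 104 at 20 kb. It was 428 with a cover of at least 50% in each list and 696 with peaks up to 1 kb apart merged. Gaps numbered 168 beside 33 opposite stretches with all lists, and 244 to 518 with 1 list left out, where fewer lists must match. They numbered 518 beside 244 without tamoxifen replicate 1, 487 beside 46 without tamoxifen replicate 2, 244 beside 118 without untreated replicate 1 and 417 beside 112 without untreated replicate 2. They numbered 358 beside 79 at a minimum of 200 bp, 29 beside 2 at 1000 bp, 994 beside 212 within MACS2 2.0.10 and 698 beside 492 within 2.1.0. Domains with an H3K9me3 region within 10 kb numbered 80 if at least 2 H3K9me3 lists had to hold it, and no share over all regions was computed for that. Within 50 kb 117 domains (24.1%) had one held by all 4 lists, as did 23.9% of all regions held by the 4 H3K27me3 lists. The H3K9me3 difference ran between -0.87 and -0.77 points with 1 list left out, where the smallest exact p is 0.25. With the MACS2 version as replicate block the coverage difference is -7.43 points by arithmetic, since each version holds 1 list per group, so the block tests nothing; the first libraries carry no number, so the labels do not pair lists. No direction of these values turned. Without read counts, depth limits cannot be given.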
